A study of Mus musculus with 30 samples.

Results

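Keratins and the intermediate filament genes of muscle were followed across extensor digitorum longus (EDL) muscle of 30 female SJL/J mice. The 8 genes were KRT18, KRT8, KRT19, DES, VIM, NES, SYNM and SYNC. They were chosen by symbol, with earlier results of these mice known, and each matched 1 of the 21073 genes of the deposited expression table. All 8 were above 3 RPKM (reads scaled by exon length and by the depth of the library) in at least 1 group, as were 9049 genes of the table.

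EDL is a fast muscle of the lower hindlimb. Muscles were taken on day 14 or day 40 from unimmunized mice, from mice given ovalbumin (OVA) in complete Freund's adjuvant (CFA), and from mice given the proteolipid protein peptide [Ser140]-PLP139-151 in CFA. The peptide induces experimental autoimmune encephalomyelitis (EAE), a demyelinating disease of the central nervous system, here in a mild form without pertussis toxin. Day 14 falls at the peak of disease and day 40 in a remission. Each group held 5 separate mice, and all groups were wild-type SJL/J, a strain known to be deficient in the membrane repair protein dysferlin and to develop a muscle disease with age. Day 14 and day 40 were different mice, so day, age and the round of dissection cannot be told apart.

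Intermediate filaments are rope-like polymers that carry mechanical load across a cell. In the muscle fibre, desmin (DES) links neighbouring Z-discs to each other and to the membrane, with synemin (SYNM) and syncoilin (SYNC) as partners that reach the dystrophin complex. Vimentin (VIM) is the filament protein of fibroblasts, endothelium and immature muscle cells, and nestin (NES) is found in precursors and at the neuromuscular and myotendinous junctions. Keratins assemble only as pairs of a type I and a type II chain. KRT8 is type II, KRT18 and KRT19 are type I, and all 3 are the keratins of simple epithelia such as gut lining, with low amounts of KRT8 and KRT19 at the costameres of muscle.

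KRT18 and KRT8 are neighbours in the genome. In RefSeq coordinates on GRCm38.p6, Krt18 (gene ID 16668) lies on the plus strand at chr15:102028216-102032026 and Krt8 (16691) on the minus strand at chr15:101996711-102004342, with 23873 bases between them. Krt19 (16669) is at chr11:100140810-100145926, Des (13346) at chr1:75360292-75368579, Vim (22352) at chr2:13574311-13582826, Nes (18008) at chr3:87971093-87980451, Synm (233335) at chr7:67730161-67759742 and Sync (68828) at chr4:129287256-129309383. A processed copy of Krt8 is annotated elsewhere in the genome, and how reads shared with it were counted is not given in the sources used here.

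The 250 bases before the start of 4 members are shown in transcript direction, because KRT18 and KRT8 went together on day 14 and apart on day 40, and because DES and VIM, both type III filament genes, differed in opposite directions. Capitals mark E-boxes (CANNTG), the core of sites bound by myogenic factors, in the first 3, and a TATA box (TATAAA) in Vim. The windows, from RefSeq on GRCm38.p6, are chr15:102027966-102028215 (plus strand), chr15:102004343-102004592 (minus), chr1:75360042-75360291 (plus) and chr2:13574061-13574310 (plus), in the order printed.
Krt18: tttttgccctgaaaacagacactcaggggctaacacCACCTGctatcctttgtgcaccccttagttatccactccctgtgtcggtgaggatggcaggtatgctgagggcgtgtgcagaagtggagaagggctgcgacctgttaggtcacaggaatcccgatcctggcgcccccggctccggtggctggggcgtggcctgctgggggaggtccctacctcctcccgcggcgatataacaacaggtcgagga
Krt8: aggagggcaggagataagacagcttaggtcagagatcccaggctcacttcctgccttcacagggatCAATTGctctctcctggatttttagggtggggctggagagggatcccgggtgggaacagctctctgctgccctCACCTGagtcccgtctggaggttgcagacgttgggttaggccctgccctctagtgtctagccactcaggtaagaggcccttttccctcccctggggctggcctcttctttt
Des: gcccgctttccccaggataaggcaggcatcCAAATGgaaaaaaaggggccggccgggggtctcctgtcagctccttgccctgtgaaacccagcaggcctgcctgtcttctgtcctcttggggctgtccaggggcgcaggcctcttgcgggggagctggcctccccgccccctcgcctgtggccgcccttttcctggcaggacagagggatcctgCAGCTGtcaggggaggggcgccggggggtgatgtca
Vim: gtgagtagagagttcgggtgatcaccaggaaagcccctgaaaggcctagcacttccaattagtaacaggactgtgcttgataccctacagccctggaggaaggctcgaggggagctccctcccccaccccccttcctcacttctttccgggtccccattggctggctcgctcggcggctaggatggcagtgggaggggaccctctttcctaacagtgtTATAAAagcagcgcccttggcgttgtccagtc
Krt18 held 1 E-box, 214 bases before the start, Krt8 held 2, at 184 and 111 bases, and Des held 2, at 220 and 36 bases. The Vim window held none, with its TATA box 32 bases before the start. Of 32851 promoter windows of this length, searched on both strands, 66.2% held an E-box and 12.4% a TATAAA. Of 7 members with a window, 5 held an E-box. No AP-1 letters (TGANTCA, in 6.75% of windows) and no CArG box (1.47%) were found in any of the 7. The matches describe these windows only, and Krt19 had no entry.

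The libraries were RNA of whole muscle, so fewer cells of a type and less RNA per cell cannot be told apart. The number of reads behind the RPKM scale, estimated from the steps between low values, was 18.2 to 31.5 M per mouse, with a median of 21.5 M. A gene was called when limma's adjusted p was below 0.05 and its fold change above 1.5, on log2(RPKM + 0.1). The fast fibre marker MYH4 averaged 5150 to 7262 RPKM in the 6 groups. None of 8 muscle fibre markers was called between EAE and unimmunized mice on day 14. Of all 8771 genes tested there, 14.6% were called higher and 11.8% lower, so nothing is read from this count. The summed level of the 8 markers was lower in these EAE mice, at 49540 to 57220 RPKM against 59100 to 70080 RPKM in unimmunized mice. In OVA mice of day 14 it was 55360 to 58910 RPKM. The fibre marker CKM was at -0.50 between EAE and unimmunized mice (adjusted p = 0.00688 by limma), under the fold threshold.

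The day 40 libraries differed from the day 14 libraries in a set of gut transcripts, whose part in the keratin levels was not tested. Transcripts of small intestine epithelium were present in all 15 day 40 mice and near 0 in all 15 day 14 mice. For 17 of 17 genes of a list of such transcripts, written after values were seen and not tested, every day 40 mouse was above every day 14 mouse, whereas this held for 123 of all 21073 genes (0.584%). The summed level of the list was 0.0161 to 0.330 RPKM on day 14 and 44.0 to 86.4 RPKM on day 40. FABP2, a fatty acid carrier of enterocytes, was listed at 0 in each day 14 mouse and at 3.32 to 7.01 RPKM in the day 40 mice. DEFA24, a Paneth cell defensin, was also listed at 0 on day 14 and reached 12.5 to 33.7 RPKM on day 40. The 3 groups of day 40 overlapped in both genes.

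KRT18 was the keratin with the largest difference on day 14. In the unimmunized mice of day 14 it was 0.518, 0.0644, 0.0969, 0.0639 and 0.235 RPKM. In the OVA mice it was 0.267, 0.157, 0.149, 0.265 and 0.219 RPKM. In the EAE mice it was 21.0, 16.8, 5.10, 4.54 and 9.12 RPKM. The lowest EAE mouse was above every other day 14 mouse, and the EAE mice themselves spread widely, with a mean of 11.3 ± 7.31 RPKM (SD, n = 5). In estimated reads, the control values rest on 2.03 to 17.2 reads per unimmunized mouse and the EAE values on 136 to 548. The log2 fold change was 5.22 (SE 0.46) against unimmunized and 4.96 (SE 0.45) against OVA mice, on a scale where the added 0.1 limits the change of so low a gene.

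On day 40 KRT18 was low again in all 3 groups. It was 0.208, 0.417, 0.178, 0.878 and 0.382 RPKM in unimmunized mice, and 0.330, 0.216, 0.349, 0.430 and 0.402 RPKM in OVA mice. In EAE mice it was 0.401, 0.248, 0.393, 0.341 and 1.18 RPKM, so that 4 of the 5 EAE mice lay within the unimmunized range. KRT18 was below the 3 RPKM filter in these comparisons. Without the filter the log2 fold change of EAE over unimmunized mice was 0.24 (95% interval -0.51 to 0.99, adjusted p = 0.716 by limma). It turned to -0.07 without EAE replicate 5, the mouse at 1.18 RPKM.

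**Figure D1:**
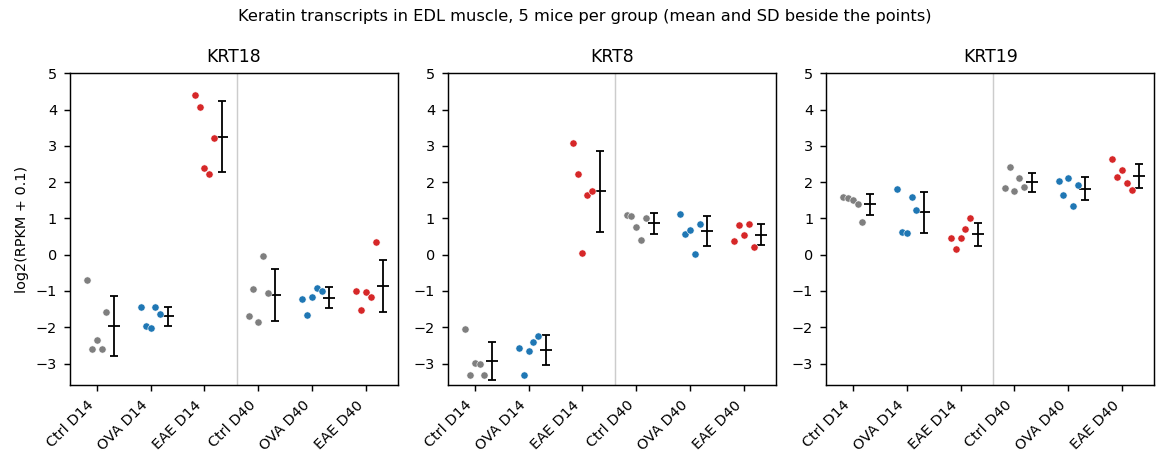
Level of KRT18, KRT8 and KRT19 in each of 30 mice as log2(RPKM + 0.1), by group, with the group mean and SD (n = 5) beside the points. KRT18 stands apart only in EAE mice of day 14, KRT8 is near the floor in the other day 14 mice and at 0.912 to 2.07 RPKM in the day 40 mice.

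KRT8, the partner chain of KRT18, went with it on day 14. In unimmunized mice KRT8 was 0.142, 0, 0.0251, 0.0248 and 0 RPKM, and in OVA mice 0.0690, 0, 0.0577, 0.0881 and 0.113 RPKM. These are 0 to 6.42 estimated reads per mouse, and 0 reads in a mouse allowed up to 0.0684 to 0.0844 RPKM. In EAE mice KRT8 was 8.33, 4.57, 0.923, 3.00 and 3.30 RPKM, all above every other day 14 mouse. EAE replicate 1 was the highest EAE mouse for both keratins, and unimmunized replicate 1 was likewise the highest unimmunized mouse for both. The log2 fold change was 4.68 (SE 0.55) against unimmunized and 4.38 (SE 0.54) against OVA mice, values that the added 0.1 limits as for KRT18. Without EAE replicate 1 the mean of KRT8 was under the 3 RPKM filter and the gene was not tested, with log2 fold changes of 4.35 and 4.05.

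On day 40 KRT8 was present in every mouse, whatever its group. It was 2.02, 1.99, 1.60, 1.22 and 1.92 RPKM in unimmunized, 2.07, 1.40, 1.52, 0.912 and 1.69 RPKM in OVA and 1.19, 1.66, 1.34, 1.71 and 1.06 RPKM in EAE mice. Each of these values rests on 40.1 to 89.9 estimated reads, and none overlapped with unimmunized or OVA mice of day 14. KRT8 did not pass the 3 RPKM filter between the days in either control group. In the fit without a filter it was higher on day 40 by 3.80 on the log2 scale in unimmunized mice (SE 0.35, adjusted p = 5.14e-09 by limma) and by 3.29 in OVA mice (SE 0.35, adjusted p = 1.15e-07). In that fit 5.33% of 17383 genes were called higher on day 40 in unimmunized mice and 3.81% of 17339 in OVA mice. With 1 added in place of 0.1 the differences were 1.40 and 1.22, and with 0.01 they were 5.93 and 4.67, in both cases below the filter and not tested.

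KRT18 was also higher on average on day 40 in both control groups, by less than KRT8 on this scale. The added 0.1 limits changes at such low levels, and the 2 genes were not compared by a test. The log2 fold change of KRT18 of day 40 over day 14 was 0.85 in unimmunized mice (95% interval 0.00 to 1.70, adjusted p = 0.144 by limma without a filter). In OVA mice it was 0.51 (-0.33 to 1.36, adjusted p = 0.503). The ratio of KRT8 to KRT18, both per length, was 0 to 0.389 in unimmunized, 0 to 0.517 in OVA and 0.181 to 0.660 in EAE mice of day 14. On day 40 it was 1.39 to 9.69 in unimmunized, 2.12 to 6.46 in OVA and 0.897 to 6.69 in EAE mice. KRT8 was thus above KRT18 in all day 40 mice but EAE replicate 5. On day 14 KRT18 had the higher value in each mouse, but in the control mice both rest on few reads, and in unimmunized replicate 2 the 0.0644 RPKM of KRT18 is within the 0.0699 RPKM that 0 reads of KRT8 allow.

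**Figure D2:**
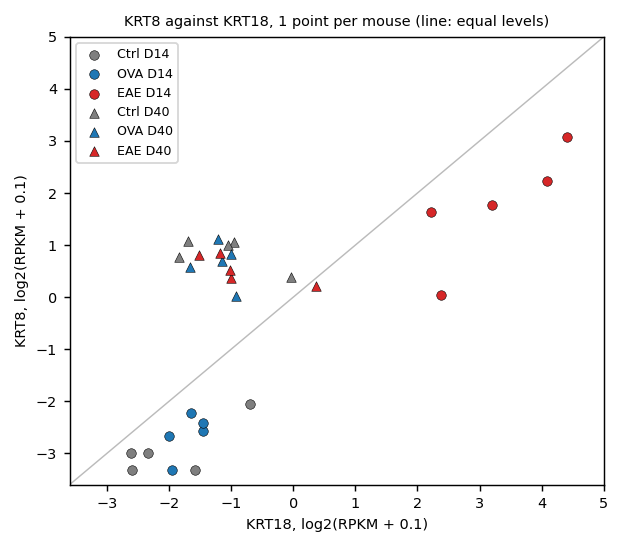
KRT8 against KRT18 in each mouse, both as log2(RPKM + 0.1), with a line of equal levels. All day 14 mice (circles) lie below the line, and of the day 40 mice (triangles) only EAE replicate 5, at a ratio of 0.897, does not lie above it.

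Beside KRT8, the epithelial transcripts EPCAM, KRT20 and CDH1 were higher on average on day 40, and these differences were not tested. EPCAM, an adhesion protein of simple epithelia, averaged 0.0776, 0.0318 and 0.00992 RPKM in unimmunized, OVA and EAE mice of day 14 and 1.20, 1.07 and 0.911 RPKM on day 40. KRT20, a keratin of the gut lining, was at most 0.164 RPKM in any day 14 mouse and 0.653 to 1.30 RPKM in the day 40 mice. CDH1, E-cadherin, averaged 0.121 to 0.154 RPKM on day 14 and 0.318 to 0.403 RPKM on day 40, with overlap between single mice. The summed level of all 8 epithelium and mesothelium markers was 0.469 to 1.09 RPKM on day 14 and 1.79 to 2.81 RPKM on day 40. KRT5 was listed at 0 in every mouse, and KRT14, UPK3B and WT1 averaged at most 0.0308 RPKM in any group. KRT7 and MSLN, also in the sum, did not exceed 3 RPKM on average in any group. Their levels are not given here, so the higher sum on day 40 is not read as a rise of every marker. Of 21 genes with group means below 0.1 RPKM in both control groups of day 14 and above 1 RPKM in all 3 groups of day 40, KRT8 was 1 and 10 belonged to the small intestine list. In EAE mice of day 14, 20 of the 21 were below 0.1 RPKM, and KRT8, at 4.02 ± 2.74 RPKM, was the exception. The part of the epithelial transcripts in the day 40 level of KRT8 was not tested.

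**Figure D3:**
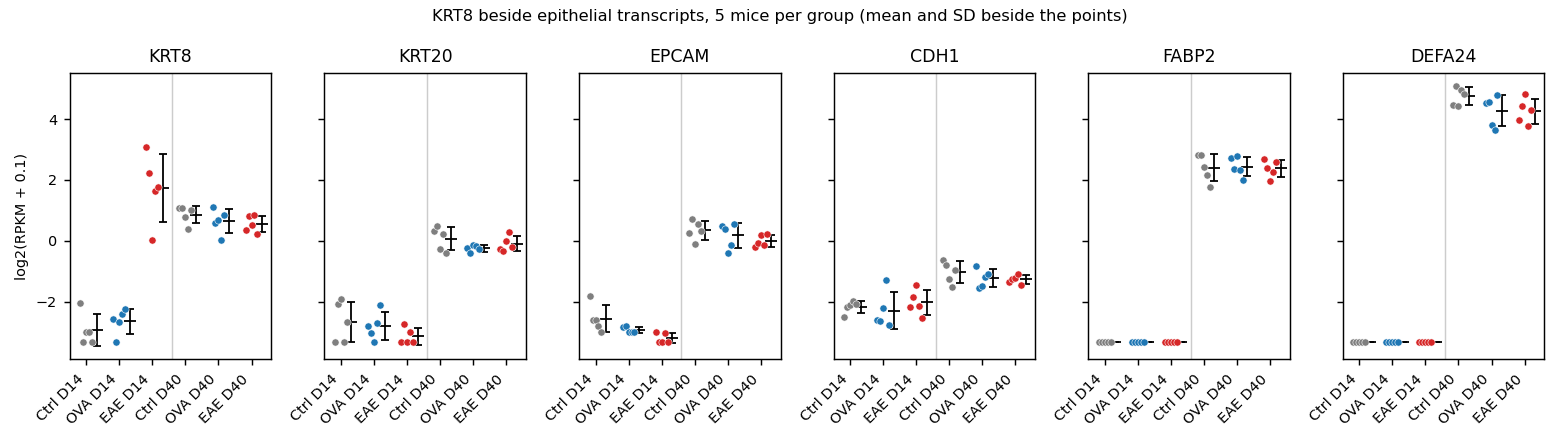
KRT8 beside KRT20, EPCAM, CDH1, FABP2 and DEFA24 in each mouse as log2(RPKM + 0.1), with the group mean and SD (n = 5). The 5 other transcripts are higher on average on day 40 in all 3 groups (FABP2 at 0 on day 14 and at 3.32 to 7.01 RPKM on day 40), and only KRT8 is also high in EAE mice of day 14.

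KRT19, which can pair with KRT8, had its lowest mean in EAE mice of day 14. It was 2.91, 2.85, 2.73, 2.53 and 1.75 RPKM in unimmunized, 3.41, 1.44, 1.40, 2.93 and 2.23 RPKM in OVA and 1.27, 1.02, 1.28, 1.52 and 1.92 RPKM in EAE mice. One EAE mouse lay above the lowest unimmunized mouse, and 3 of the 5 EAE mice lay below every OVA mouse. The log2 fold change was -0.83 against unimmunized and -0.61 against OVA mice, and the gene did not reach 3 RPKM in either comparison.

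On day 40 KRT19 was 3.27 to 5.20 RPKM in unimmunized, 2.42 to 4.23 RPKM in OVA and 3.35 to 6.16 RPKM in EAE mice, and the groups overlapped. Unimmunized mice of day 40 were all above those of day 14, as in 6.73% of genes tested. KRT19 passed the 3 RPKM filter between the days only through the day 40 mice, in which it was high, so its p is given from the fit without a filter. The difference was 0.60 on the log2 scale in unimmunized mice (SE 0.22, adjusted p = 0.0537 by limma) and 0.64 in OVA mice (SE 0.22, adjusted p = 0.0693), and neither was called. With the filter KRT19 was the only one of 6 members called in unimmunized mice, where 5.02% of 8788 genes were called higher, and nothing is read from that call. It was also lost when any 1 of 6 mice was left out (unimmunized replicates 1 and 5 of day 14, and 2 to 5 of day 40, with differences of 0.48 to 0.66), and with other scaling. The gut and EPCAM transcripts given above were also higher on day 40, and their part in the KRT19 difference was not tested.

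DES was by far the most abundant member, taking 79.7 to 93.9% of the summed RPKM of the 8 genes in each mouse. On day 14 it was 2577, 1844, 1870, 2065 and 1709 RPKM in unimmunized mice and 2156, 1371, 1444, 1521 and 2070 RPKM in OVA mice. In EAE mice it was 4211, 3254, 2659, 3093 and 3322 RPKM, and the lowest EAE mouse was just above the highest unimmunized mouse. The log2 fold change was 0.72 (SE 0.17) against unimmunized and 0.96 (SE 0.17) against OVA mice. Because DES was so high, the EAE mice carried 1295 more RPKM of it on average than the unimmunized mice, against 11.1 more of KRT18. On day 40 DES was 1305 to 1836, 1556 to 1710 and 1512 to 1904 RPKM in unimmunized, OVA and EAE mice.

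VIM was the member called lower on day 14. It was 144, 148, 142, 189 and 163 RPKM in unimmunized, 168, 115, 108, 145 and 199 RPKM in OVA and 98.4, 49.5, 102, 86.3 and 60.5 RPKM in EAE mice. All 5 EAE mice lay below the lowest mouse of either control group. The log2 fold change was -1.03 (SE 0.21) against unimmunized and -0.90 (SE 0.21) against OVA mice. Fibroblast markers moved the same way: 5 of 6 were called lower in EAE than in unimmunized mice and none higher. Of all 8771 genes tested, 11.8% were called lower and 14.6% higher. The summed level of the fibroblast markers was 292 to 471 against 814 to 1368 RPKM. On the log2 scale the collagen genes COL1A1 and COL3A1 were at -3.77 and -2.14 and PI16 at -2.28, all further from 0 than VIM, and the matrix proteoglycan genes DCN and LUM were at -0.70 and -0.71 (adjusted p of the 5 from 1.20e-06 to 0.00802 by limma). The fibroblast receptor gene PDGFRA was not called, at -0.16 (adjusted p = 0.402). Of the endothelial markers 2 of 6 and of the macrophage markers 2 of 4 were called lower, beside the same 11.8% of all genes. Of these markers, ADGRE1 passed the filter only through the unimmunized mice (4.97 against 2.64 RPKM in EAE mice). The part of these cell types in the VIM difference was not tested. On day 40 VIM was 130 to 156 RPKM in unimmunized, 105 to 163 RPKM in OVA and 118 to 155 RPKM in EAE mice.

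The desmin partners differed from each other. SYNC was 2.95, 10.6, 13.5, 15.3 and 18.6 RPKM in unimmunized, 6.05, 21.8, 19.1, 16.4 and 8.92 RPKM in OVA and 31.3, 50.2, 26.4, 33.6 and 35.0 RPKM in EAE mice of day 14. The EAE mice did not overlap with either control group, the control groups overlapped with each other, and the log2 fold change of EAE mice was 1.72 (SE 0.43) against unimmunized and 1.40 (SE 0.43) against OVA mice. SYNM was 86.1 to 125 RPKM in unimmunized, 67.6 to 125 RPKM in OVA and 94.7 to 153 RPKM in EAE mice, with log2 fold changes of 0.30 (SE 0.17) and 0.46 (SE 0.17) and overlapping groups. NES was 13.4 to 22.6, 11.3 to 17.2 and 11.7 to 17.1 RPKM, with log2 fold changes of -0.22 (SE 0.15) and -0.08 (SE 0.15). SYNM and NES were not called, though SYNM became called against OVA mice with no fold threshold. On day 40 SYNC was 11.1 to 24.2 RPKM in unimmunized mice and 10.3 to 17.1 RPKM in EAE mice.

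**Figure D4:**
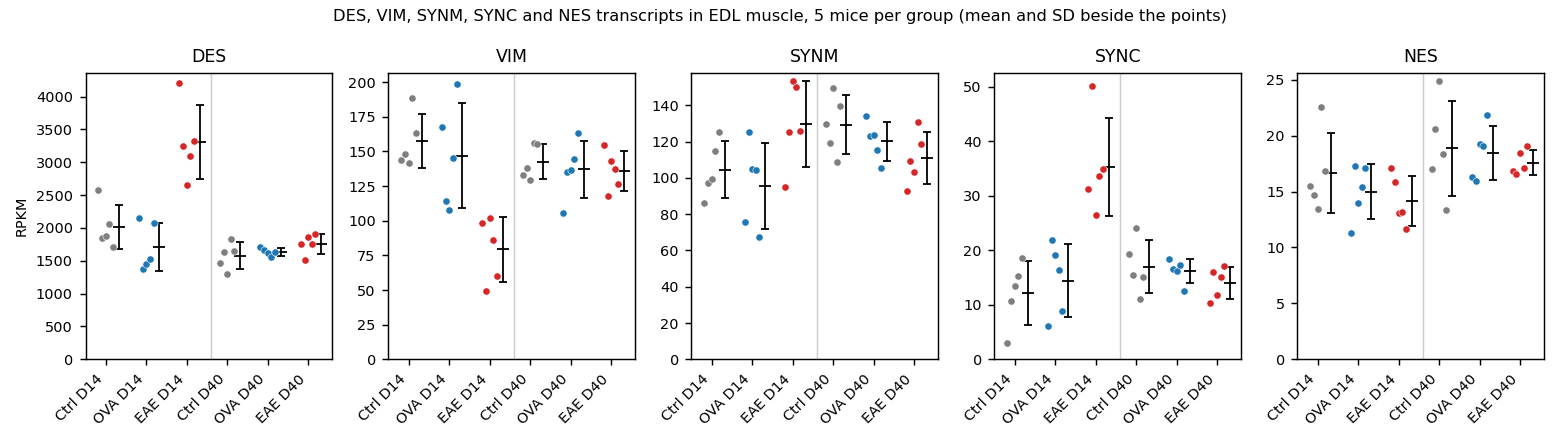
Levels of DES, VIM, SYNM, SYNC and NES in RPKM in each mouse, each panel starting at 0, with the group mean and SD (n = 5). The EAE mice of day 14 stand apart for DES and SYNC (higher) and VIM (lower), while SYNM and NES overlap between all groups of a day.

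In all, 4 members (KRT18, KRT8, DES and SYNC) were called higher and 1 (VIM) lower in EAE than in unimmunized mice of day 14, where 14.6% of 8771 genes tested were called higher and 11.8% lower. The same 5 were called against OVA mice, where 11.0% of 8674 genes were called higher and 9.28% lower. The members were chosen with these comparisons known, and both comparisons share the EAE mice, so nothing is read from the counts. KRT18 and KRT8 passed the 3 RPKM filter on day 14 only through the EAE mice. In each of the 5 the EAE mice did not overlap with either control group. Of all genes tested, every EAE mouse was higher than every unimmunized mouse in 21.2% and lower in 11.0%, and against OVA mice in 18.0% and 8.20%. The median log2 fold change of all genes tested was 0.11 against unimmunized mice, and 0.02 with median-of-ratios scaling, and each of these calls stood under that scaling. Markers of satellite cells and immature or denervated fibres were also higher in these EAE mice. Of 7 tested, 5 were called higher, of which NCAM1 and CHRNG passed the filter only through the EAE mice. Among the others were MYOG (4.10, adjusted p = 1.28e-06 by limma) and the acetylcholine receptor gene CHRNA1 (2.93, adjusted p = 4.83e-07), and the summed level of the list was 199 to 604 against 49.3 to 95.7 RPKM. The summed epithelium and mesothelium markers overlapped between these groups, at 0.571 to 0.979 RPKM in EAE and 0.522 to 1.09 RPKM in unimmunized mice. These sums include KRT7 and MSLN, whose levels are not given here.

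Immunization with OVA in CFA gave no called member on day 14. Among the 5 members tested, adjusted p ranged from 0.649 to 0.853, and over all 8471 genes 0.0944% were called higher and 0.0472% lower, with 821 genes at an unadjusted p under 0.05. The largest of the 5 was SYNC at 0.32 (95% interval -0.59 to 1.22), which turned to -0.13 without unimmunized replicate 1, the mouse at 2.95 RPKM. DES was at -0.24 (-0.59 to 0.10) and VIM at -0.13 (-0.56 to 0.31).

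On day 40 no member was called in any of the 3 comparisons. Between EAE and unimmunized mice adjusted p ranged from 0.162 to 0.732 over 6 members tested, with 0.0690% of 8691 genes called higher, 0.391% lower and 2423 genes at an unadjusted p under 0.05. DES was at 0.16 (95% interval -0.02 to 0.34), VIM at -0.07 (-0.29 to 0.15), SYNC at -0.25 (-0.63 to 0.13) and SYNM at -0.22 (-0.43 to -0.01). Between EAE and OVA mice adjusted p was 0.2998 to 0.984, with 0.0349% of 8598 genes called higher and 0.174% lower, and 1500 at an unadjusted p under 0.05. Between OVA and unimmunized mice it was 0.999 for each of the 6 members tested, with 0% of 8706 genes called in either direction and 272 at an unadjusted p under 0.05. KRT8, fitted without a filter, was at -0.31 between EAE and unimmunized mice (-0.74 to 0.12, adjusted p = 0.387).

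**Figure D5:**
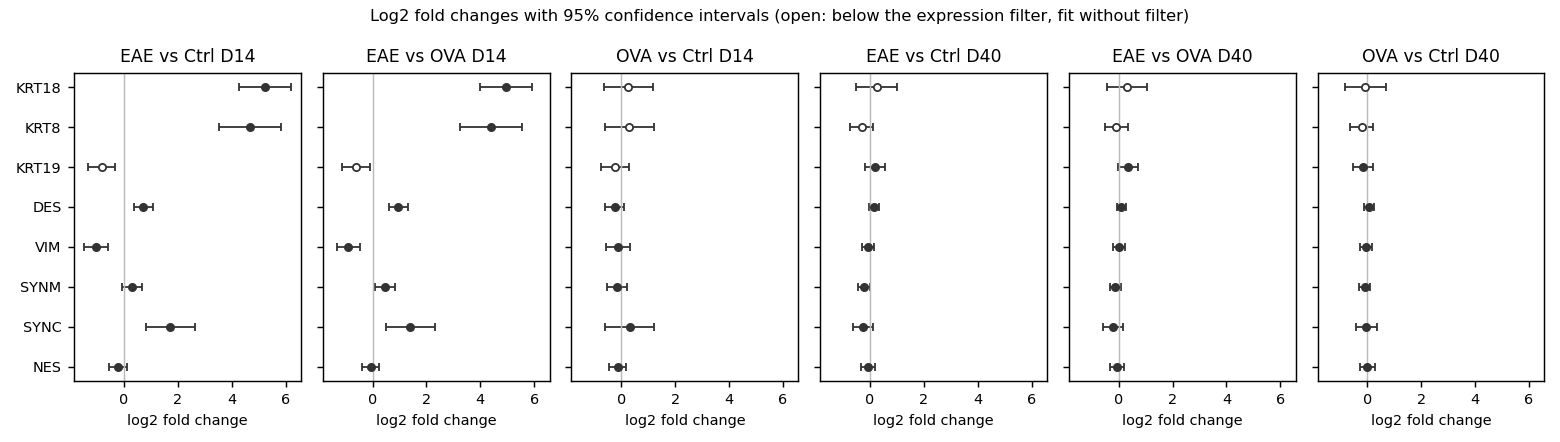
Log2 fold changes of the 8 members with 95% confidence intervals in 6 comparisons within a day, filled where the gene passed the 3 RPKM filter and open where it was fitted without it. On day 14 both EAE panels hold KRT18 and KRT8 near 5 and VIM near -1, and in the other 4 panels no member was called.

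The EAE mice were also compared between the days, where 6 of the 8 members were called. Of these, KRT18 and KRT8 passed the filter only through the day 14 mice and KRT19 only through the day 40 mice, the groups in which they were high. As a description, since these EAE mice guided the choice of members, the log2 fold change of day 40 over day 14 was -4.13 (SE 0.43) for KRT18, -0.90 (SE 0.13) for DES, -1.31 (SE 0.35) for SYNC, 0.82 (SE 0.17) for VIM and 1.61 (SE 0.22) for KRT19. KRT8 was at -1.19 (SE 0.36), with overlapping groups, and all 15 day 40 libraries carried the gut transcripts. It was not called with 0.01 added (-1.23), nor without EAE replicate 1 of day 14, where it was below the filter (-0.86). In this comparison 2 members were called higher and 4 lower, where 8.36% of 8709 genes were called higher and 12.7% lower. In unimmunized mice DES was at -0.35 between the days (SE 0.13, adjusted p = 0.0457, under the fold threshold), and SYNC at 0.66 (SE 0.35, adjusted p = 0.140), which fell to 0.21 without unimmunized replicate 1 of day 14. In OVA mice DES was at -0.04 (SE 0.13, adjusted p = 0.881), and 2.25% of 8648 genes were called higher and 1.71% lower. A difference of the OVA effect between the days passed the test (adjusted p below 0.05) for none of the 6 members tested (adjusted p of 0.594 to 0.962) and for 0% of 8848 genes.

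Few other keratins were expressed. Of 51, 14 were at 0 in every mouse and 1, KRT80, a type II keratin, passed the 3 RPKM filter in the day 14 comparisons. KRT80 averaged 7.17 RPKM in EAE, 2.26 RPKM in unimmunized and 2.13 RPKM in OVA mice of day 14, with a log2 fold change of 1.65 over unimmunized mice (SE 0.32). It passed the filter only through the EAE mice, in which it was high, so no p is given. On day 40 it averaged 1.77 to 1.89 RPKM in the 3 groups. Of 11 other intermediate filament genes 3 were tested, and none was called against unimmunized mice. LMNA, the nuclear lamin gene, was called higher against OVA mice (0.84, adjusted p = 0.000493) and is named after its value was seen. Against unimmunized mice LMNA was at 0.57 (adjusted p = 0.00614 by limma), under the fold threshold.

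Genes whose proteins anchor the filaments were higher in EAE mice of day 14 in part. Of 6 plakin and desmosome genes tested 4 were called higher than in unimmunized mice and none lower, with a median log2 fold change of 0.75, where 14.6% of all genes tested were called higher and 11.8% lower and the median was 0.11. JUP, plakoglobin, averaged 43.6 against 23.3 RPKM (0.88, adjusted p = 0.000105), and the plakophilin PKP4 was at 0.77 (adjusted p = 6.71e-05). The plakophilin PKP2, at 1.02 (SE 0.19), is among the 4 but passed the filter only through the EAE mice (3.36 against 1.57 RPKM), so its call is not independent of the filter. The plakin genes PLEC, plectin (0.39, adjusted p = 0.0589 by limma), and DST (0.32, adjusted p = 0.417) were not called. Against OVA mice JUP and PKP2 were called and PKP4 was not (0.38, under the fold threshold). PLEC and DST were not called there either (0.34 and 0.20). Of 7 costamere genes 3 were called higher and none lower, with a median of 0.41, beside the same 14.6% and 11.8% of all genes: DMD, dystrophin (1.51, adjusted p = 0.00212), DTNA, alpha-dystrobrevin to which syncoilin binds (0.75, adjusted p = 0.000462), and VCL, vinculin (0.73, adjusted p = 0.00962). The VCL call was lost without unimmunized replicate 1 (0.56). None of the 3 was called against OVA mice, where DMD was at 0.86 (adjusted p = 0.0560). All 3 became called there without OVA replicate 2 (DMD 1.09, DTNA 0.63, VCL 0.61) and without OVA replicate 3 (1.01, 0.63 and 0.61), as did DMD without EAE replicate 1 (0.97) and with all 30 mice in 1 model (adjusted p = 0.0188), and DTNA without EAE replicate 3 (0.64).

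The small heat shock proteins, some of which bind desmin, differed between EAE and control mice of day 14. Of 12 chaperone and Z-disc genes tested 6 were called higher and 1 lower in EAE than in unimmunized mice of day 14, with a median of 0.63, where 14.6% of all genes tested were called higher and 11.8% lower. HSPB8 averaged 941 against 220 RPKM (1.99, adjusted p = 1.06e-05), HSPB7 702 against 190 RPKM (1.85, adjusted p = 1.60e-05) and HSPB1 314 against 111 RPKM (1.44, adjusted p = 0.000638). HSPB6 was the one called lower, at -0.59 (adjusted p = 0.0107), and it was not called with quantile normalization (-0.30) or when any of 4 mice was left out (unimmunized replicates 1 and 3, EAE replicates 2 and 5, at -0.49 to -0.55). Against OVA mice the 4 were called in the same directions, HSPB6 at -0.70 but not with quantile normalization (-0.45, adjusted p = 0.0761). None of 7 genes of filament turnover and kinases tested was called. No gene of these lists was called between any groups on day 40 or between OVA and unimmunized mice on day 14.

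Between the days in unimmunized mice, DMD was called higher on day 40 (0.97, SE 0.30, adjusted p = 0.0187), DST, dystonin, higher (0.76, SE 0.27, adjusted p = 0.0334, named after its value was seen) and HSPB1 lower (-1.19, SE 0.24, adjusted p = 0.00198). These were 1 of 7 costamere genes, 1 of 5 plakin and desmosome genes and 1 of 12 chaperone and Z-disc genes tested. Of all 8788 genes tested, 5.02% were called higher and 4.35% lower. The DMD call was lost without unimmunized replicate 1 of day 14 (0.74) and without replicate 3 of day 40 (0.80). In OVA mice the 3 were not called.

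The genes nearest to KRT18 over the 30 mice, by the root mean square difference of standardized levels among 9049 genes, included GTPBP4 (0.309 SD), UBXN4 (0.326), PANX1 (0.329) and MLIP (0.332). PANX1, a membrane channel gene, averaged 4.52 and 3.61 RPKM in unimmunized and OVA mice of day 14, 15.0 RPKM in EAE mice of day 14 and 4.33 to 4.78 RPKM on day 40. Nearest to DES were PPP1R14B (0.204), NOL3 (0.213), PSMA4 (0.242), REXO2 (0.251) and CCT7 (0.258). Nearest to VIM were METRNL (0.412), CLIC1 (0.414), ANXA2 (0.428), CMTM3 (0.430) and PSME1 (0.432). KRT8, looked at after its values were seen, had no neighbour as near, with RC3H2 first at 0.558.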

How the data were processed

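RNA of EDL muscle was measured by polyA-selected, directional, paired-end RNA-Seq in 30 mice, 5 in each of 6 groups. Per the methods of the study and the labels, the authors aligned reads to mm10 with Subread, used featureCounts for the reads of each RefSeq gene and scaled these to RPKM. The deposited values are log2(RPKM + 1), with 0.0001 written where a gene had no read (25.8% of values): on this reading 58.4% of 610 low values fell within 0.1 of whole reads, against 15.3% for a natural logarithm and 11.4% for plain values. They were turned back to RPKM. Reads per mouse (18.2 to 31.5 M) were estimated from the same steps, so read numbers are approximate and cover counting error only. Members and lists of other genes were chosen with earlier results of these data known.

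Counts were not used here, so the authors' count test (EdgeR) was not repeated. Comparisons used limma 3.58.1 in R 4.3.3 (lmFit, eBayes with a trend) on log2(RPKM + 0.1), over genes with a mean above 3 RPKM in a compared group, with Benjamini-Hochberg adjustment over all genes tested. Comparisons within a day fitted its 15 mice, and those between days all 30. To be called, a gene needed a fold change above 1.5 and an adjusted p below 0.05. Comparisons with EAE mice of day 14 guided the choice of members, so for members they are given with SE and without p. Members below the filter were fitted without it. The text names all members, the called genes of each list with the largest change between EAE and unimmunized mice of day 14 (at most 3 higher and 3 lower), and the 5 nearest profiles of KRT18, VIM and DES. One gene that this rule names is not reported here. The small intestine list, the profile of KRT8, LMNA, PLEC and DST were added after values were seen. Alternatives were the added constant, the filter, scaling, the fold threshold, the mice in the model, a replicate block and leaving out each mouse. The script was tested on simulated data.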

Additional observations from a re-analysis of the deposited data

Results flagged for a closer look

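Among the 48 sets of 5 mice (8 members in 6 groups), 2 held a mouse whose distance to its nearest neighbour took more than 0.71 of the group's range. Chance gives such a gap in about 1 of 20 groups. KRT18 in EAE mice of day 40 was 1.18 RPKM in replicate 5 and 0.248 to 0.401 RPKM in the other 4 mice. KRT8 in unimmunized mice of day 14 was 0.142 RPKM in replicate 1, or 6.42 estimated reads, and 0 to 0.0251 RPKM in the other 4. In no other set of mice did a member pass this limit.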

How the results depend on the processing

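The filter decides which low members are tested. Without it, or at a mean above 1 RPKM, 2 members in place of 1 were called lower in EAE than in unimmunized mice of day 14 (VIM and KRT19, KRT19 at -0.83). For day 40 against day 14, 1 member was called higher in OVA mice in both cases, in place of 0, and 2 in unimmunized mice at a mean above 1 RPKM. In unimmunized mice, 0 members were called higher with log2(RPKM + 1), median-of-ratios scaling or quantile normalization, and 1 was called lower with no fold threshold (DES). Leaving out 1 mouse at a time gave 0 to 1 members called higher between the days in unimmunized mice and 0 to 1 in OVA mice.

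Differences that changed direction were small and not called. Quantile normalization gave 0.068 for KRT8 between EAE and OVA mice of day 40, -0.029 for DES between OVA and unimmunized mice of day 40, 0.077 for VIM between the days in unimmunized mice, 0.060 for DES and 0.090 for VIM between the days in OVA mice, and -0.011 for SYNM in the change of the OVA effect. Median-of-ratios scaling gave 0.036 for VIM between EAE and OVA mice of day 40. With 1 mouse left out, SYNC ranged from -0.13 to 0.59 between OVA and unimmunized mice of day 14. Between EAE and unimmunized mice of day 40, KRT18 ranged from -0.066 to 0.51 and NES from -0.19 to 0.036. Between EAE and OVA mice, KRT8 ranged from -0.25 to 0.023 and VIM from -0.096 to 0.061. Between OVA and unimmunized mice, KRT18 ranged from -0.26 to 0.20, DES from -0.0043 to 0.12, VIM from -0.13 to 0.024, NES from -0.12 to 0.10 and SYNC from -0.18 to 0.10. Between the days in OVA mice, DES ranged from -0.11 to 0.050 and VIM from -0.18 to 0.043. The causes were not tested.

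Correlations of the deviations of same-numbered mice were over 0.1 in 8 of 30 cases, from -0.74 to 0.71, so the number is not taken as a pairing. The 3 mice numbered 1 of day 14 did deviate together (0.512 to 0.71), and they lay farthest from their groups (median deviations of 0.273, 0.226 and 0.21 on the log2 scale). Members shared in this: replicate 1 was the highest mouse of its group for KRT18 and DES in all 3 groups of day 14. With a replicate block no call of a member changed (KRT18 stayed at 5.22 with SE 0.38), and DMD became called against OVA mice of day 14 (0.86, adjusted p = 0.0183 by limma). Depth limits KRT8 on day 14, at 0 to 6.42 estimated reads in control mice.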
